A study of Mus musculus with 6 samples.

Results

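The integrated stress response and amino acid synthesis genes are a set of 35 mouse genes chosen by name: the kinases and phosphatase subunits that act on the translation factor eIF2, the transcription factors of the response, its stress effectors, enzymes of amino acid and one-carbon synthesis, and cytosolic tRNA synthetases. All 35 were found among the 53090 rows of the deposited files, each in 1 row, and 32 of them had enough counts to be tested. They were compared between neutrophils of liver and neutrophils of blood, 3 libraries each. The mice of both groups had eaten a diet with 3,5-diethoxycarbonyl-1,4-dihydrocollidine (DDC), which blocks heme synthesis and injures bile ducts, for 1 week. The cells were selected by Ly6G, a surface protein of mouse neutrophils, with magnetic beads, the liver cells after separation on Percoll and the blood cells after red cell lysis. No group without the diet is among these samples, and the sources used here do not give the strain, genotype, age or sex of the mice, or whether animals were pooled.

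When cells lack amino acids or heme, or load the endoplasmic reticulum with unfolded protein, kinases phosphorylate the alpha subunit of eIF2. General translation then slows while the mRNA of Atf4 is translated better, and ATF4 protein drives genes for amino acid synthesis, amino acid import and tRNA charging. Much of this control acts on protein, through phosphorylation and translation, which RNA levels do not measure. Mature neutrophils are short-lived cells with little RNA, and are known for inflammatory output rather than for biosynthesis.

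Total counts ran from 13054684 to 17579671 per library. None of the 12 neutrophil markers was at 0 counts in all libraries. Their summed level, in CPM (the count scaled to the size of the library), was 7923 to 13600 in liver and 21317 to 32619 in blood, and 8 of them were called lower in liver. Itgam, at -0.51, was not called, nor were Camp, Ltf and Ngp, at 1.03, 0.61 and 0.54 on the log2 scale (adjusted p 0.12 to 0.64). Those last 3 were highest in liver 1. Of 32 members tested, 11 rose and 3 fell in liver at an adjusted p under 0.05 by edgeR's quasi-likelihood test. That is 34.4% higher and 9.38% lower, against 17.4% and 14.2% of all 13458 genes tested (31.6% called in either direction). The 11 higher members became 7 of 33 tested without blood 2 and 8 without any other single library. Over all genes, 1838 of 14634 were called higher without blood 2, against 2336 of 13458 with all libraries. The median log2 fold change of the tested members, liver minus blood, was 0.48, against 0.04 over all genes tested. The median was 0.17, with 7 members higher and 3 lower, without liver 3 and blood 1, the libraries with the highest macrophage markers of their groups. In 12 members every liver library lay above every blood library and in 6 every one lay below, where the shares over all genes were 25.8% and 22.7%. In these bulk samples a change in the kinds of cells present and a change in RNA per cell cannot be told apart. Liver and blood cells were also isolated by different steps, so effects of tissue and of isolation cannot be told apart either. Both phosphatase subunits changed, in opposite directions, and none of the 3 stress effectors tested was called.

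**Figure D1:**
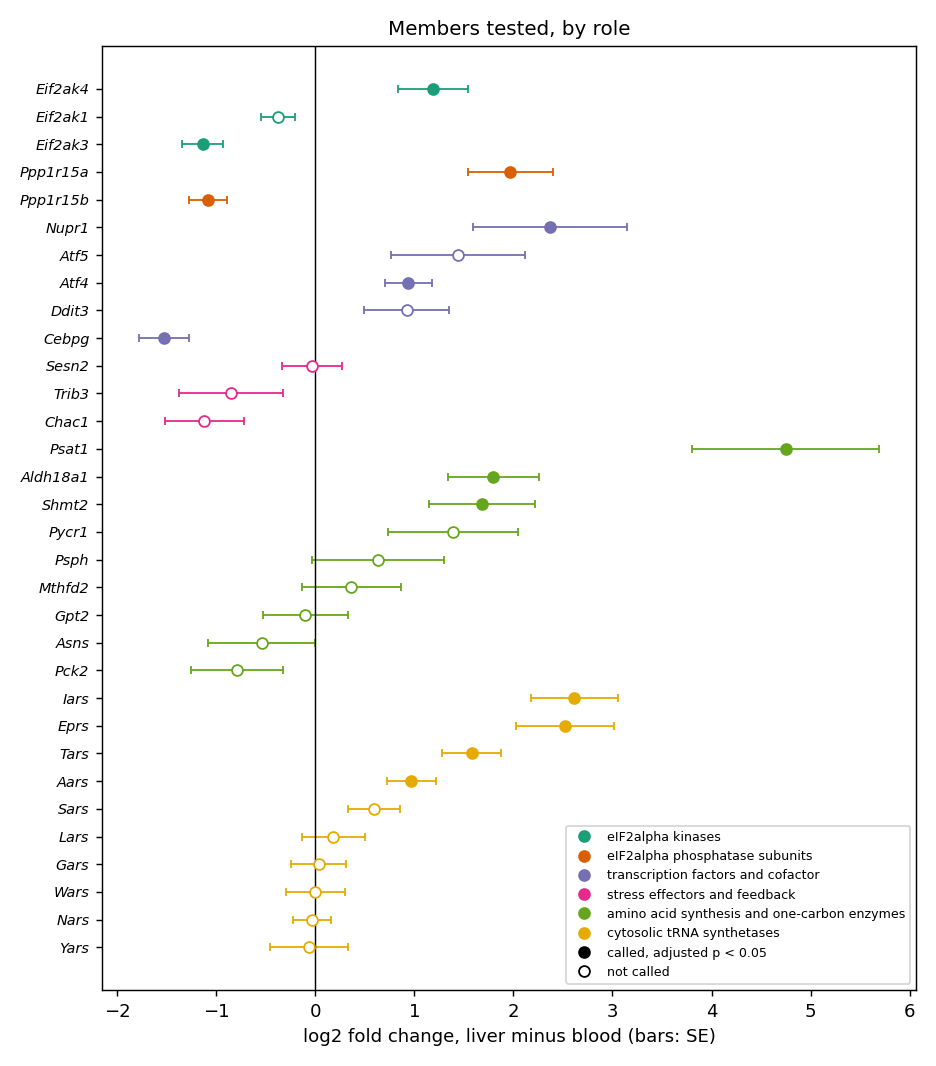
Log2 fold change of each tested member, liver minus blood, with its standard error (bars), ordered by role. Filled points passed the test. Psat1, with 2 counts in all of blood, had the largest fitted rise, at 4.75, and Cebpg the largest fall, at -1.53. Open points lie on both sides of 0.

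ATF4 and C/EBP proteins bind together at a composite element, and its core was searched for in the promoters of the members, from 250 bases before to 50 bases after the start site. The letters searched were TGATGNAAN, with N any base, on both strands. RefSeq promoter windows (GRCm38.p6) were found for 30 of the 35 members. Cth, Lars, Nars, Ppp1r15b and Wars were not matched. Of those 30 genes, 11 held a match in a window, or 36.7%. A match was held by 3.95% of all 32851 windows and by 2.85% of the 9107 tested genes with a window. The members were chosen as genes of this response, so their higher share may follow from that choice and does not describe these samples. Among members called higher 4 of 11 held a match, and among those not called or not tested 7 of 17 did, with 0 of 2 among those called lower, so matches lay in both kinds of member. The 4 windows of called members are printed because they show where the matches lie in genes that rose. Each runs 5′ to 3′ on the strand of the gene, and capitals mark the matches.
Iars: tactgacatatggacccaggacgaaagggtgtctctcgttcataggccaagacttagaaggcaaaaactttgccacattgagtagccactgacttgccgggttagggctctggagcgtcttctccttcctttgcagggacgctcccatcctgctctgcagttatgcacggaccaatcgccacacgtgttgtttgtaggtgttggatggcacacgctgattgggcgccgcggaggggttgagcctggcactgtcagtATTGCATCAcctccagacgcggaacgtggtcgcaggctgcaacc
Nupr1: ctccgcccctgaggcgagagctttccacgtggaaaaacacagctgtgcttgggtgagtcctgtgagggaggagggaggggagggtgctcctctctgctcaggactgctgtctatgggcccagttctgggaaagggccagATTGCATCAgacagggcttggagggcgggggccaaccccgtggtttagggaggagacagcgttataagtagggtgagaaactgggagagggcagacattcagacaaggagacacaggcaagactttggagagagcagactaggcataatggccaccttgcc
Tars: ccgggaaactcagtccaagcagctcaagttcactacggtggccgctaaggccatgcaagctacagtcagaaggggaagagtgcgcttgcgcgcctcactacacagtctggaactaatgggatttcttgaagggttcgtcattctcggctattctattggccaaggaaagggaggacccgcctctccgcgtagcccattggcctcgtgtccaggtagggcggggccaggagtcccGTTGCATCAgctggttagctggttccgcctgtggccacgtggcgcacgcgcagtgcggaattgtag
Aars: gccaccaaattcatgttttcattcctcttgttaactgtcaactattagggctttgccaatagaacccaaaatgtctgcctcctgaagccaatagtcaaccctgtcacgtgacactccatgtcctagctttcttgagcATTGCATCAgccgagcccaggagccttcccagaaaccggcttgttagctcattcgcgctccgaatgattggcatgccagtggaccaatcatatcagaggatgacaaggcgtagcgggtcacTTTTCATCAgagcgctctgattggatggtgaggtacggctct
The window of Iars is chr13:49681880-49682179 (plus strand), that of Nupr1 chr7:126625421-126625720 (minus), that of Tars chr15:11399609-11399908 (minus) and that of Aars chr8:111033592-111033891 (plus). The match of Nupr1 begins 111 bases before the start site, that of Tars 16 bases and the first of Aars 113 bases before it, and that of Iars lies just after it, beginning at base 7 of the transcript. All of them read on the opposite strand. The words GTTGCATCA in Chac1, TGATGAAAC in Asns, TTTACATCA in Trib3, TGATGCAAT in Pycr1, ATTTCATCA in Gars, GTTACATCA in Pck2 and TGATGCAAC in Yars are the matches in members that were not called. These matches describe letters only, and no binding was measured. In the GENCODE annotation Trib3 starts at base 152344032 of chromosome 2 (minus strand), so its match lies before that start, though after the RefSeq one.

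Of the 3 member kinases that phosphorylate eIF2, 1 fell, 1 rose and 1 was not called. Eif2ak3 encodes PERK, the kinase that senses unfolded protein in the endoplasmic reticulum (chromosome 6, 70844515 to 70905245, GRCm38). It had 95.9, 93.3 and 136 CPM in liver 1, 2 and 3 and 236, 216 and 263 CPM in blood 1, 2 and 3. All liver libraries were below all blood libraries, and its level fell by 1.14 ± 0.21 on the log2 scale (SE, adjusted p = 0.0035). Eif2ak4 encodes GCN2, which senses uncharged tRNA, and had 14.7, 14.2 and 17.9 CPM in liver and 5.03, 4.99 and 10.4 CPM in blood. The groups did not overlap, with blood 3 nearest to liver, and the rise was 1.19 ± 0.35 (adjusted p = 0.030). Blood 3 was the single library whose omission kept this call (adjusted p 0.0558 to 0.0943 for the others). Eif2ak1 encodes HRI, the kinase that is inhibited by heme. It had 68.8, 74.8 and 65.2 CPM in liver and 82.4, 86.9 and 101 CPM in blood, a log2 fold change of -0.37 ± 0.17 that did not pass the test (adjusted p = 0.13). The remaining eIF2 kinase, Eif2ak2 (PKR, which senses double-stranded RNA), is in the list of other pathway genes and was named after its value was seen, at -0.23 ± 0.31 (adjusted p = 0.60). The ratio of Eif2ak3 to Eif2ak4 CPM within a library, chosen after their values were seen, was 6.53, 6.59 and 7.56 in liver and 46.9, 43.1 and 25.2 in blood. In the annotation, 8.59% of the exon bases of Eif2ak1 are shared with Aimp2 on the other strand, so some reads may belong to either. For Eif2ak3 8.05% are shared with Gm43292, also on the other strand.

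The subunits that bring protein phosphatase 1 to eIF2 and so end the response changed in opposite directions. Ppp1r15a encodes GADD34, the stress-inducible subunit (chromosome 7, 45522916 to 45526268). It had 1232, 929.9 and 939 CPM in liver and 353, 337 and 103 CPM in blood. All liver libraries exceeded all blood libraries, and blood 3 was well below the other blood libraries. The rise was 3.91-fold (log2 fold change 1.97 ± 0.43, adjusted p = 0.0096). Ppp1r15b encodes CReP, the constitutive subunit (chromosome 1, 133131143 to 133139783), and had 109, 105 and 143 CPM in liver and 234, 284 and 241 CPM in blood. It was 2.12-fold lower in liver, with 11.4% of its exon bases shared with Gm26616 on the other strand (log2 fold change -1.08 ± 0.20, adjusted p = 0.0035). Their exon lengths differ (2.94 and 5.59 kb), so the ratio of their CPM can be compared between groups but is not a relative abundance. In blood the Ppp1r15a to Ppp1r15b ratio of CPM was 1.51, 1.19 and 0.428. In liver that ratio, also chosen after the values were seen, was 11.3, 8.85 and 6.55. Ppp1r15a alone made up 42.5% ± 2.30 of the summed CPM of the 35 members in liver and 15.3% ± 7.08 in blood (SD, n = 3). The members together had 2427 ± 317 against 1666 ± 199 CPM, liver first, and without Ppp1r15a 1394 ± 160 and 1402 ± 65.3 CPM.

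Among the transcription factors, Atf4 rose and Cebpg fell. Atf4, the central factor of the response (chromosome 15, 80255184 to 80257541), had 331, 265 and 248 CPM in liver and 171, 167 and 103 CPM in blood. The groups did not overlap, and the rise was 1.91-fold (log2 fold change 0.94 ± 0.24, adjusted p = 0.015). Its call was lost without liver 1 (adjusted p = 0.0611) and without blood 3 (adjusted p = 0.0607). Cebpg, a partner with which ATF4 pairs on DNA (chromosome 7, 35046422 to 35056573), had 31.9, 31.4 and 33.2 CPM in liver and 130.2, 74.1 and 73.8 CPM in blood. The liver libraries lay close together and far below blood, a 2.88-fold difference (log2 fold change -1.53 ± 0.25, adjusted p = 0.0023). Nupr1, a small stress-induced chromatin cofactor whose promoter is printed above, had 6.14, 5.66 and 5.08 CPM in liver and 2.44, 0.0876 and 0.671 CPM in blood. The log2 fold change was 2.37 ± 0.78 (adjusted p = 0.044), with 45 counts in the 3 blood libraries. It was 3.76 without blood 1, whose level was the highest of the blood libraries, and the call was lost without any other library (adjusted p 0.0589 to 0.115).

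Ddit3 and Atf5 were not called. Ddit3 encodes CHOP, a factor linked to cell death under prolonged stress, and had 152, 259 and 86.1 CPM in liver and 80.9, 127 and 55.0 CPM in blood. The groups overlapped, since liver 3 lay below blood 2 (log2 fold change 0.92 ± 0.43, adjusted p = 0.14). Without liver 3 it was called higher, at 1.23 (adjusted p = 0.0499), and without liver 2 it was 0.44 (adjusted p = 0.43). Atf5, a factor translated in the same way as Atf4, had 2.09, 9.33 and 4.12 CPM in liver and 3.31, 1.66 and 0.739 CPM in blood, a log2 fold change of 1.44 ± 0.68 (adjusted p = 0.13). It was 0.69 without liver 2 and 2.07 without blood 1 (adjusted p = 0.50 and 0.076).

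**Figure D2:**
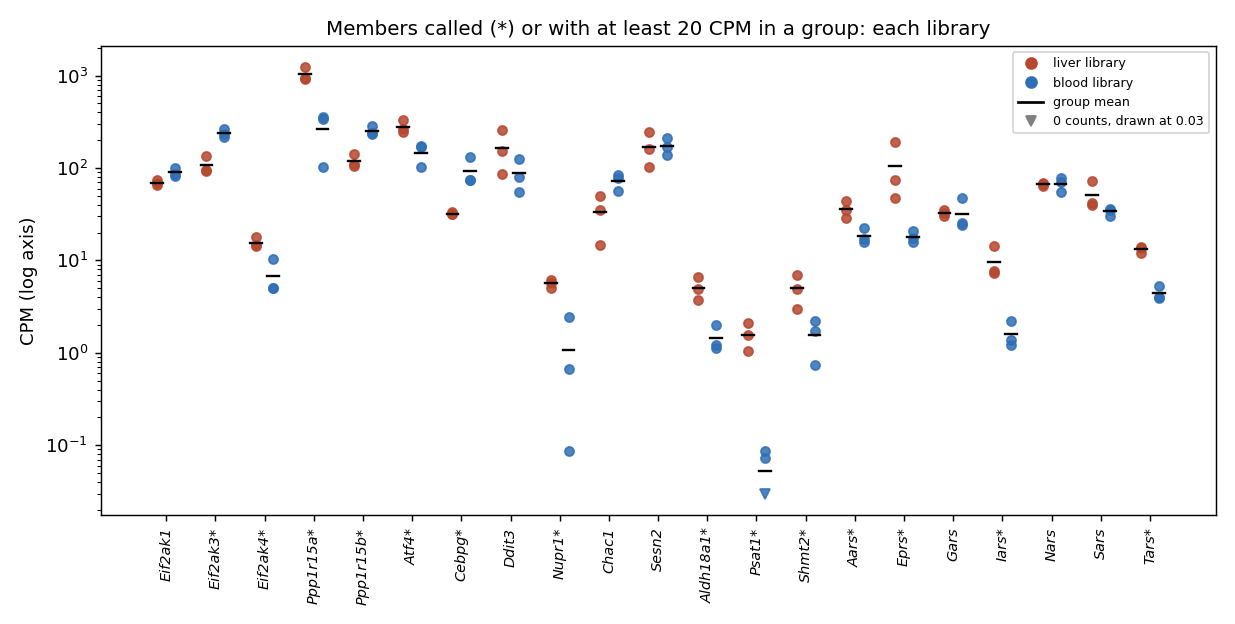
CPM on a log axis in each of the 3 liver and 3 blood libraries for members that were called (asterisk) or had a mean of at least 20 CPM in a group, with group means as lines. Ppp1r15a has the highest CPM in liver, between 929.9 and 1232, and the liver points of Cebpg lie together near 32 CPM.

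None of the tested stress effectors and feedback genes passed the test. Chac1, which degrades glutathione, had 49.9, 35.5 and 14.5 CPM in liver and 77.9, 56.3 and 83.1 CPM in blood. Every liver library lay below every blood library, but the liver libraries were spread widely and the log2 fold change of -1.12 ± 0.40 missed the threshold (adjusted p = 0.062). Without liver 1 it was called lower, at -1.54 (adjusted p = 0.029), and over 17 alternatives it was called in 4 (adjusted p 3.9e-05 to 0.13). The ratio of Chac1 to Atf4 CPM, chosen after the values were seen, was 0.151, 0.134 and 0.0585 in liver and 0.455, 0.338 and 0.81 in blood. Sesn2, a leucine sensor that restrains mTORC1, had 243, 159.8 and 103 CPM in liver and 168, 213 and 138 CPM in blood. Those groups overlapped (log2 fold change -0.04 ± 0.30, adjusted p = 0.94). Trib3, a pseudokinase that inhibits ATF4, stayed at 1.03 to 2.81 CPM in liver and 2.75 to 3.68 CPM in blood (adjusted p = 0.25). Stc2, a secreted glycoprotein, had 2 counts in the 3 liver libraries and 0 in the 3 blood libraries and was not tested.

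Among the 11 enzymes, 3 rose, 6 were tested without a call and 2 did not pass the filter on low counts, Phgdh and Cth. All were at low levels, with at most 13.2 CPM in any library. Aldh18a1, which makes the first intermediate of proline synthesis, had 4.96, 3.73 and 6.56 CPM in liver and 2.01, 1.14 and 1.21 CPM in blood, and rose 3.48-fold (adjusted p = 0.016). Its call was lost without liver 3, blood 2 or blood 3 (adjusted p 0.0516 to 0.0607). Shmt2, which takes a carbon unit from serine in mitochondria, had 4.96, 3.01 and 6.95 CPM in liver and 1.72, 2.19 and 0.739 CPM in blood, and rose 3.22-fold (adjusted p = 0.038). That call was lost without any library except liver 2 and blood 2 (adjusted p 0.0834 to 0.133). For both genes all liver libraries exceeded all blood libraries.

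Psat1, the transaminase of serine synthesis, had 1.04, 1.57 and 2.12 CPM in liver and 0.0719, 0.0876 and 0 CPM in blood. It was called higher (adjusted p = 0.0054) on 75 counts in all of liver and 2 in all of blood, a ratio of 31.8 with a 95% interval of 8.49 to 267 (exact, counting error only). Psat1 passed the filter on low counts through its liver libraries alone, so a large rise was close to fixed once it was tested. The fitted log2 fold change of 4.75 became 4.13 without blood 3, the blood library with 0 counts, and was still called (adjusted p = 0.025). Its neighbours in the pathway gave no call, and their difference from Psat1 was not tested. Phgdh, the first enzyme of serine synthesis, had 20, 2 and 2 counts in liver and 6, 17 and 6 in blood and was not tested. Psph, which completes the pathway, had a log2 fold change of 0.63 ± 0.67 (adjusted p = 0.50), and 10.4% of its exon bases are shared with Cct6a on the other strand. Asns, which makes asparagine and is a standard ATF4 target, had 3.00, 6.20 and 1.48 CPM in liver and 3.74, 7.36 and 4.50 CPM in blood (log2 fold change -0.54 ± 0.54, adjusted p = 0.48). Pycr1, the last enzyme of proline synthesis, had 7.77, 2.71 and 2.96 CPM in liver and 0.862, 0.964 and 3.22 CPM in blood (log2 fold change 1.39 ± 0.66, adjusted p = 0.13). Its log2 fold change was 2.24 without blood 3, where it was called (adjusted p = 0.040), and 0.73 without liver 1 (adjusted p = 0.48). Mthfd2, a mitochondrial folate enzyme, Gpt2, a mitochondrial alanine transaminase, and Pck2, the mitochondrial phosphoenolpyruvate carboxykinase, had log2 fold changes of 0.36, -0.10 and -0.79, none of them called (adjusted p 0.22 to 0.88).

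Cth, which makes cysteine from cystathionine and is abundant in hepatocytes, had 0, 1.20 and 12.2 CPM in liver 1, 2 and 3 and 0.359, 0 and 0 CPM in blood. It was not tested, and 189 of its 209 liver counts were in liver 3. Alb, which encodes albumin and marks hepatocytes, had 7.25, 73.2 and 148 CPM in the same liver libraries and 2.44, 0.0876 and 0.47 CPM in blood. Among the liver libraries, 8 of the 12 hepatocyte markers, Alb among them, were lowest in liver 1 and highest in liver 3. Fgb, Fga and Cyp2e1 were highest in liver 2, and Trf was lowest there. Of the 35 members 8 were also lowest in liver 1 and highest in liver 3: Cth, Psat1, Iars, Gpt2, Pck2, Lars, Wars and Yars. Another 8 members were highest in liver 2 and 14 were lowest there. The share of each order over all genes was not taken, so these counts single out no order. Of the 12 hepatocyte markers, 7 were tested and 6 were called higher, and their summed level was 272, 322 and 504 CPM in liver and 108 to 152 CPM in blood, of which Trf, encoding transferrin, gave 175 to 255 CPM in liver and 107.6 to 146 CPM in blood. For Kupffer cell and macrophage markers, 4 of 10 tested were higher, with 184 to 481 CPM in liver and 41.2 to 177 CPM in blood, and Clec4f, which marks Kupffer cells, had 17.0, 5.12 and 59.8 CPM in liver. Monocyte markers were higher in 5 of 7 (1038 to 1516 CPM against 358 to 469 CPM), dendritic cell markers in 4 of 7 (210.2 to 252 against 124 to 157) and liver endothelial markers in 3 of 4 tested (19.6 to 33.6 against 14.8 to 18.3). No marker of these 5 lists was at 0 in all libraries. Platelet markers were lower in 3 of 5 tested (7.70 to 15.7 CPM in liver against 34.6 to 206 in blood), and erythroid markers, with 0 of 6 called, ran from 142 to 2727 CPM in liver and from 366 to 33639 CPM in blood. Alb, Apoa1, Apoa2, Fga, Hpx, Clec4f, Marco, Vsig4, Xcr1, Siglech, Cd209a, Ptprb and Kdr passed the filter on low counts through their liver libraries alone. A rise of these markers was close to fixed once they were tested, as was the fall of the platelet marker Ppbp, which passed through blood. The part of these cells in the changes of the members was not tested.

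**Figure D3:**
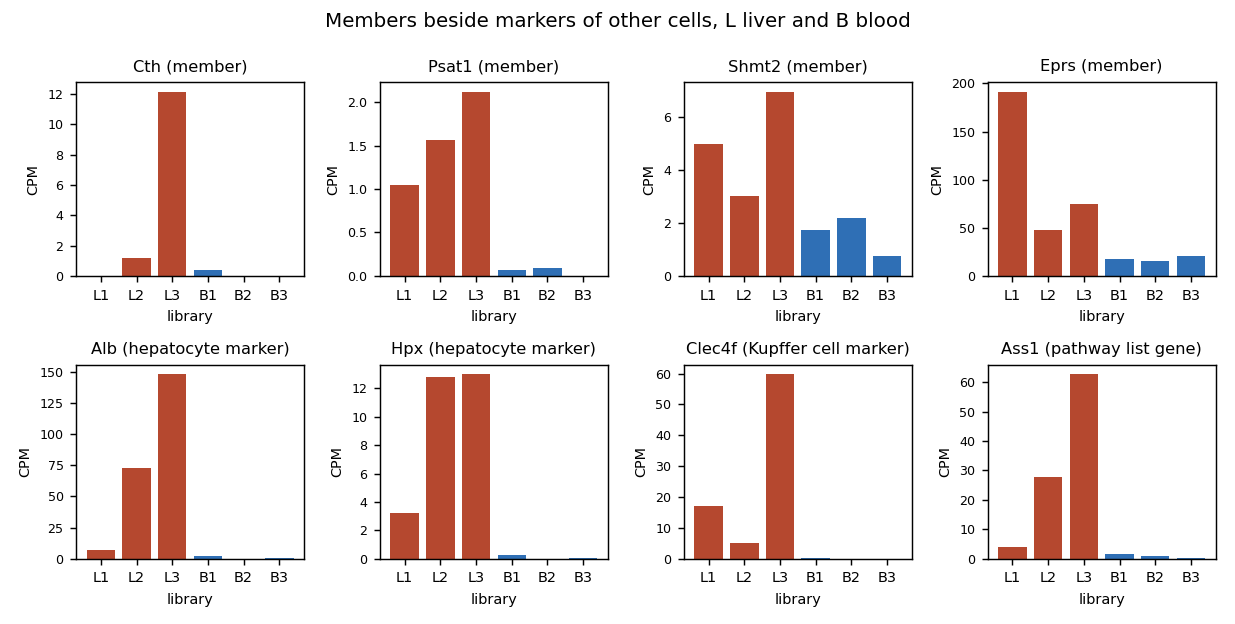
CPM in each liver (L) and blood (B) library, on axes that start at 0, for 4 members, 3 markers of other cells and Ass1. Cth, Psat1, Ass1 and Alb are lowest in L1 and highest in L3 among the liver libraries, whereas Eprs is highest in L1, at 192 CPM. The share of each order over all genes was not taken.

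Cytosolic tRNA synthetases attach each amino acid to its tRNA, and 4 of the 10 members of this kind rose while 0 fell, where 17.4% of all genes were called higher and 14.2% lower. Eprs, which charges glutamate and proline (chromosome 1, 185363044 to 185428360), had 192, 47.8 and 74.3 CPM in liver and 17.7, 15.9 and 20.8 CPM in blood. All liver libraries exceeded all blood libraries, and liver 1 stood far above the others. The rise was 5.75-fold (log2 fold change 2.52 ± 0.49, adjusted p = 0.0078), and the log2 fold change was 1.74 without liver 1 (adjusted p = 0.0052). Iars, for isoleucine, had 7.25, 7.59 and 14.3 CPM in liver and 1.37, 2.19 and 1.21 CPM in blood, and rose 6.12-fold (log2 fold change 2.61 ± 0.44, adjusted p = 0.0026). Tars, for threonine, had 13.8, 12.2 and 13.6 CPM in liver and 5.25, 3.94 and 4.03 CPM in blood, and rose 2.99-fold (adjusted p = 0.0041). The groups were apart and tight for Tars, with an SD of 0.899 CPM in liver and 0.729 CPM in blood. Aars, for alanine, had 28.7, 44.1 and 35 CPM in liver and 15.9, 16.9 and 22.2 CPM in blood, and rose 1.96-fold (adjusted p = 0.016). That call was lost without liver 2, blood 1 or blood 2 (adjusted p 0.0536 to 0.0643), and 14.3% of the exon bases of Aars are shared with Exosc6 on the same strand. The windows of Iars, Tars and Aars printed above each hold a match to the letters searched, and in the window of Eprs no match was found.

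The other 6 synthetases did not pass the test, and the windows of Gars and Yars among them also hold a match. Nars, for asparagine, had 67.8, 68.3 and 63.1 CPM in liver and 54.8, 78.8 and 70.2 CPM in blood, a log2 fold change of -0.03 ± 0.19. Gars, for glycine, had 35.4, 30.2 and 32.9 CPM in liver and 23.9, 25.1 and 47.1 CPM in blood, with blood 3 above every liver library. Sars, for serine, had 39.8, 73.2 and 41.4 CPM in liver and 35.5, 30.1 and 36.4 CPM in blood. Its groups did not overlap, but liver 2 stood apart and the log2 fold change of 0.60 ± 0.26 was not called (adjusted p = 0.11). Lars, Wars and Yars, for leucine, tryptophan and tyrosine, had log2 fold changes of 0.18, 0.0011 and -0.06 (adjusted p 0.69 to 0.998). Without Eprs the synthetases summed to 242 ± 24.6 CPM in liver and 189 ± 26.7 CPM in blood, and with it to 346 ± 53.8 and 207 ± 28.5 CPM.

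Of the 14 members called, 8 were called in every alternative that tested them and whichever single library was left out: Ppp1r15a, Psat1, Iars, Tars and Eprs as higher, and Eif2ak3, Ppp1r15b and Cebpg as lower. Without liver 3 and blood 1 together, the 7 called higher were Ppp1r15a, Atf4, Nupr1, Psat1, Iars, Tars and Eprs, and the 3 called lower were those same genes. The liver libraries differed among themselves without a common order. Of the 32 tested members, 10 were highest in liver 1, 8 in liver 2 and 14 in liver 3, and in blood 9, 10 and 13 were highest in blood 1, 2 and 3.

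**Figure D4:**
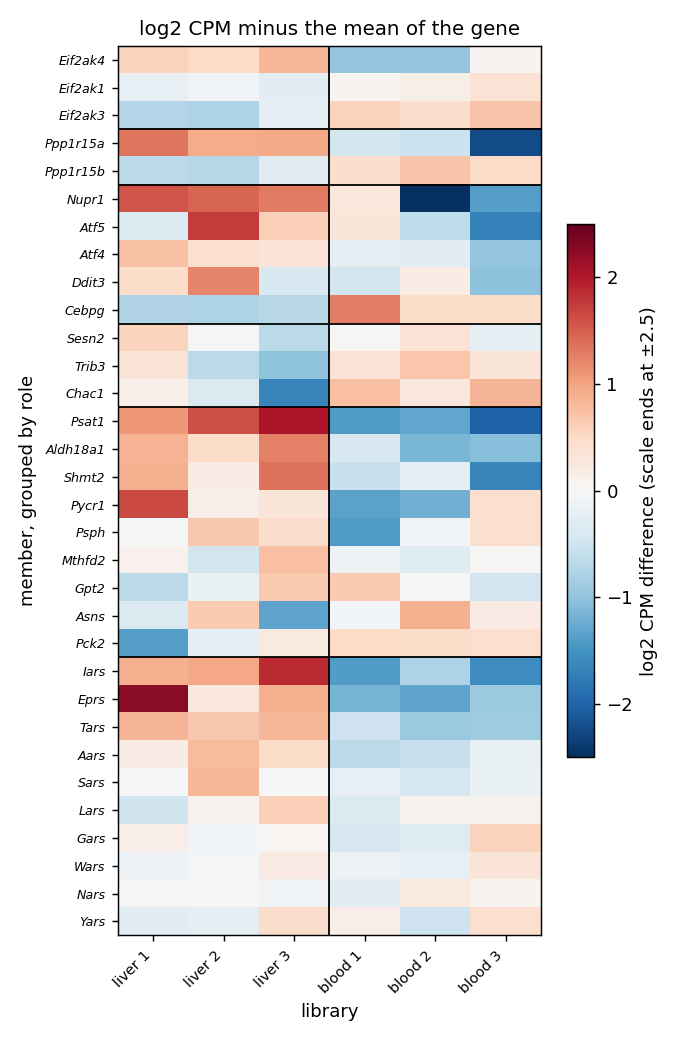
Log2 CPM of each tested member minus its mean over the 6 libraries, red above and blue below, with lines between roles and between liver and blood. The 10 synthetases split into 4 that are higher in liver and 6 with mostly pale rows, and Ppp1r15a and Ppp1r15b have opposite colours. Nupr1 in blood 2 lies past the end of the scale.

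Levels of different genes can be compared only per length, so CPM was divided by the annotated exon length in kb. On that scale the same 7 genes led in both groups and in the same order. Ppp1r15a was first, with 352 ± 58.5 CPM per kb in liver and 89.9 ± 47.6 in blood. Atf4 followed with 119 ± 18.5 and 62.3 ± 16.3, Ddit3 with 96.8 ± 50.9 and 51.1 ± 21.2, and Sesn2 with 48.6 ± 20.3 and 49.8 ± 10.8. Ppp1r15b had 21.3 ± 3.73 in liver and 45.2 ± 4.83 in blood, Chac1 20.4 ± 10.9 and 44.3 ± 8.67, and Eif2ak3 18 ± 3.95 and 39.5 ± 3.91 CPM per kb (SD, n = 3). In liver, Ppp1r15a stood above Atf4 and Sesn2 above Ppp1r15b by more than their SDs, and the other neighbours in this order did not. In blood no neighbours among the 7 differed by more than their SDs. The synthetases ranged from 0.906 (Yars) to 15.2 (Nars) CPM per kb in liver. For Eprs and Aars the annotated exons add up to 18.1 and 9.28 kb, so their values per kb may be understated where shorter transcripts prevail.

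Other genes of the pathway, taken from lists of general knowledge, were read against 17.4% of all genes called higher and 14.2% called lower. The genes of the other ATF4 and CHOP targets rose in 11 of 22 tested and fell in 3, with a median log2 fold change of 0.88. Vegfa, an angiogenic factor, was 8.45-fold higher, with 505 ± 219 against 59.8 ± 10.7 CPM. Gdf15, a secreted stress signal, was 8.05-fold higher (9.74 ± 5.63 against 1.20 ± 0.724 CPM). Slc3a2, the shared heavy chain of several amino acid transporters, was 5.53-fold higher (443 ± 123 against 80.2 ± 28.2 CPM, adjusted p = 0.00090). Its partner Slc7a11, the cystine importer, and Atf3, a stress factor downstream of ATF4, were both named after their values were seen, with 5.14-fold and 5.38-fold rises (adjusted p = 0.00068 and 0.00043). Eif4ebp1, a brake on translation, was 2.78-fold lower, Map1lc3b, of autophagosomes, 2.61-fold lower and Gtpbp2, linked to ribosome rescue, 1.62-fold lower, the last not called without liver 1 (adjusted p = 0.0534). Several of these genes are also known targets of other factors, such as Slc7a11 of NRF2 and Vegfa of HIF1A.

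Of 17 other genes of the eIF2 pathway 2 rose and 3 fell, near the shares over all genes, with a median of 0.25. Impact, whose protein inhibits GCN2 by competing for its activator, was 6.49-fold higher, with 86.1 ± 26.4 against 13.3 ± 1.43 CPM (adjusted p = 0.00028). Eif2s1, the eIF2 subunit that the kinases phosphorylate, was 2.57-fold higher (17.6 ± 1.44 against 6.83 ± 2.01 CPM). Ppp1ca and Ppp1cc, catalytic subunits of the phosphatase that GADD34 and CReP recruit, were 1.82-fold and 1.88-fold lower. Oma1, a mitochondrial protease that signals to HRI, was 2.34-fold lower, and omitting any library but liver 3 and blood 3 ended its call (adjusted p 0.0505 to 0.0595).

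The remaining synthetase lists gave unlike counts. Of 13 further cytosolic synthetases and scaffold proteins of their complex, only Rars, for arginine, was called, 2.99-fold higher (14.5 ± 3.46 against 4.86 ± 1.02 CPM, adjusted p = 0.0065), and the median of the list was 0.44. Mitochondrial synthetases rose in 5 of 14 tested and fell in 1, with a median of 0.80. Mars2, for methionine, was 3.45-fold higher (adjusted p = 0.0096). Hars2, for histidine, was 2.20-fold lower and lost its call without any library except liver 3 (adjusted p 0.0524 to 0.116).

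Other amino acid and one-carbon enzymes rose in 6 of 21 tested and fell in 0, with a median of 0.81. Gcsh, a carrier protein of glycine cleavage, was 16.0-fold higher (16.3 ± 6.55 against 1.02 ± 0.341 CPM, adjusted p = 0.00044). Got1, the cytosolic aspartate transaminase, was 5.71-fold higher, with 62.3, 15.7 and 40.5 CPM in liver 1, 2 and 3. Ass1, an enzyme of arginine synthesis that is abundant in hepatocytes, had 4.10, 27.7 and 62.7 CPM in liver 1, 2 and 3 and 1.65, 0.789 and 0.0671 CPM in blood. It was lowest in liver 1 and highest in liver 3, an order whose share over all genes was not taken. The part of hepatocytes in its rise was not tested. The Ass1 call was lost without liver 2, blood 2 or blood 3 (adjusted p 0.0569 to 0.101). Its log2 fold change of 5.23 was 4.24 without liver 3 and 6.23 without blood 1. With 23, 9 and 1 counts in blood, Ass1 passed the filter on low counts through its liver libraries alone. A large rise of Ass1 was therefore close to fixed once it was tested.

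Chaperones and other targets of ATF6 and XBP1, the parallel arms of the unfolded protein response, rose in 9 of 18 tested and fell in 0, with a median of 0.94. Hyou1, a chaperone of the endoplasmic reticulum, had 71.9 ± 11.7 against 25.5 ± 0.529 CPM, a 2.81-fold rise (adjusted p = 0.00093). Canx, encoding calnexin, was 2.40-fold higher (adjusted p = 0.0016). Pdia4, a disulfide isomerase, was 2.36-fold higher, and lost its call without liver 1, blood 2 or blood 3 (adjusted p 0.0684 to 0.0959).

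**Figure D5:**
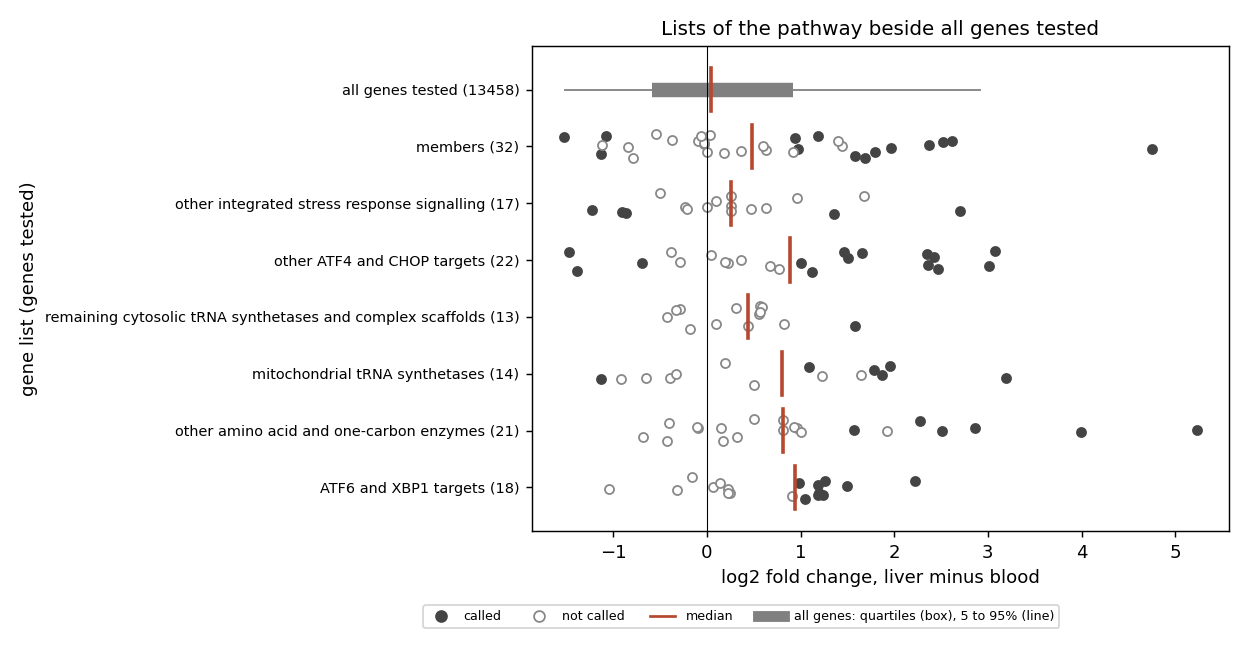
Log2 fold change, liver minus blood, of each tested gene in 7 lists (points, filled where called), with the median of each list in red and the spread of all 13458 genes in grey. The members have a median of 0.48 and the list of other ATF4 and CHOP targets 0.88.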

How the data were processed

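The files hold expected counts per gene, as the authors deposited them. The submitters' processing notes name FastQC 0.11.5, STAR, RSEM, limma and the build GRCm38. Per the labels' protocols, libraries came from a stranded low-input total-RNA kit. No label or header gives the versions of STAR and RSEM or says whether counting used strand. Reads of a gene and its antisense partner may therefore not have been separated. Expected counts were rounded to whole numbers, then kept by filterByExpr at a minimum count of 10 and a minimum total of 15, and TMM factors set the library sizes. The main test was the robust quasi-likelihood test of edgeR 4.0.16 in R 4.3.3. Benjamini-Hochberg adjustment ran over the 13458 genes tested, and an adjusted p under 0.05 was called. CPM is on TMM-scaled library sizes, where 3 counts are 0.181 to 0.263 CPM, for counting error only. Standard errors derive from the F statistic.

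Rows were matched to GENCODE release 21 for mouse (GRCm38), 30 of 35 members with the same version of the identifier and the others without it. For a repeated symbol the row with the largest summed counts was kept. Members and lists were chosen with earlier results of these data known. All members are named, and of each pathway list up to 3 called genes per direction with the largest change among those with a mean of at least 5 CPM. 1 gene that this rule names is not reported here. Chi-square per degree of freedom between libraries of a group was 52.1 to 79.0, so none was a repeat. The labels do not say that each library is 1 mouse, so the p-values reflect only how far these samples spread, which may be technical. The 17 alternatives include DESeq2 1.42.0 and voom of limma 3.58.1.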

Additional observations from a re-analysis of the deposited data

How the results depend on the processing

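With liver 3 and blood 1 left out together, 1195 genes were called lower in place of 1916, 7 members higher in place of 11 and the median of the members was 0.17 in place of 0.48. With single libraries left out, 7 to 8 members were called higher and 3 to 4 lower. Over all genes, 1732 to 1993 were then called higher and 1323 to 1626 lower, in place of 2336 and 1916. No called member changed sign under any of the 17 alternatives, and 8 uncalled ones did. On total counts Sesn2, Gpt2, Nars and Yars had 0.038, 0.023, 0.041 and 0.0033 on the log2 scale. With a minimum count of 30 Sesn2, Nars and Yars had 0.025, 0.029 and 3.9e-05. Wars had -0.0071 without mitochondrial and ribosomal RNA-overlapping genes, -0.020 with no filter, -0.021 with DESeq2 and -0.00014 with the rows of a symbol summed. Without liver 3 and blood 1, Sesn2, Mthfd2, Gars, Lars and Wars had 0.17, -0.053, -0.15, -0.28 and -0.20. With single libraries left out, the values ran from -0.17 to 0.37 for Gars, -0.56 to 0.21 for Gpt2, -0.13 to 0.41 for Lars, -0.033 to 0.61 for Mthfd2, -0.21 to 0.063 for Nars, -0.40 to 0.22 for Sesn2, -0.12 to 0.14 for Wars and -0.34 to 0.11 for Yars. The cause was not tested.

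The deviations of same-numbered libraries had Pearson r of 0.054, 0.156 and 0.0225 across genes, which are not independent. Liver 1 and liver 2 were closest to the blood library of the same number, but liver 3 was closest to blood 1 (r = 0.120). The labels name no pairs, so the numbers were not taken as pairs, and a pairing remains possible. With a replicate block 11 members were called higher and 3 lower, with 2322 and 2312 genes in all. Depth limits Stc2, with 2 counts, Phgdh, with 24 in liver and 29 in blood, and Psat1, with 2 counts in blood.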
